A study of Mus musculus with 8 samples.

Results

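The smooth muscle contractile genes are the genes whose products form, anchor and switch on the contractile apparatus of smooth muscle cells. A fixed list of 10 genes was used (Acta2, Actg2, Myh11, Des, Cnn1, Tagln, Lmod1, Smtn, Myocd and Synpo2). They were chosen by name and not by their values in these libraries, although earlier results of these data were known. All 10 were among the 24419 genes of the count table, and 9 of them were among the 15875 genes tested. Myocd had too few counts to be tested.

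Bulk RNA was sequenced from 4 mouse models of endometrial cancer, with 2 libraries per model. Uterus organoids from CAG-Cas9-EGFP mice, which carry Cas9 and a green fluorescent protein under the broadly active CAG promoter, were edited with viral vectors and injected into the left uterus of female nude mice (BALB/cA-nu, 8 weeks old), which lack mature T cells but keep their own uterine muscle, stroma and vessels. The edits of all models included an sgRNA against Trp53. TPM carried Myc overexpression, TPMCa (TPMPik3ca in the labels) the same with a Pik3ca E545K cDNA, TPMR1 (TPMPik3r1 in the labels) the same as TPM with an sgRNA against Pik3r1, and TPK no introduced Myc. The labels call the material tumor organoids, whereas by the methods of the study the RNA came from tumors removed roughly 2 months after the organoids were injected. The labels do not say whether the 2 libraries of a model came from separate mice, but the figure legends of the study give 2 mice per model. The p-values measure only the spread between these libraries.

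Smooth muscle cells contract when myosin pulls on actin filaments that are tied to dense bodies and to desmin filaments. Most genes of this apparatus are switched on by serum response factor, which binds the CArG box, together with myocardin. In the uterus these genes mark the myometrium, the muscle wall under the endometrium, and the muscle coat of vessels, while Acta2 and Tagln are also made by myofibroblasts and pericytes. In bulk tissue, fewer smooth muscle cells and less RNA per cell cannot be told apart.

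Levels are given as CPM: each count was divided by its library size, adjusted by the TMM method, and put on a common scale. Total counts lay between 15748396 and 26943611 per library, and a count of 3, taken as the floor of detection, was worth 0.116 to 0.198 CPM, a limit for counting error alone. A pair of libraries stood apart in other cell type markers. Replicate 2 of TPK held 1909 CPM of a list of 16 skeletal muscle genes, against 15.3 to 135 CPM in the other 7 libraries, and replicate 1 of TPMR1 held 5057 CPM of 5 steroid-producing gonad genes, against 446 CPM in replicate 2 of TPMR1 and at most 22.7 CPM elsewhere. Of the general epithelium list, 6 of 6 genes differed among the models, with sums of 2938 to 5494 CPM in the TPM and TPK libraries and 6.44 to 73.3 CPM in the TPMCa and TPMR1 libraries.

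Upstream sequences are shown for a pair of members at opposite ends in replicate 2 of TPK, where desmin was at its highest and leiomodin at its lowest of the 8 libraries. They come from RefSeq promoters on GRCm38.p6, which held 6 of the 10 members, and both genes lie on the plus strand of chromosome 1. The bases end before the first annotated start of the gene. Capitals mark a 6-base E-box (CAGCTG, which reads the same on both strands) and, in Lmod1, a pair of CArG-like sequences.
Des, chr1:75360042-75360291: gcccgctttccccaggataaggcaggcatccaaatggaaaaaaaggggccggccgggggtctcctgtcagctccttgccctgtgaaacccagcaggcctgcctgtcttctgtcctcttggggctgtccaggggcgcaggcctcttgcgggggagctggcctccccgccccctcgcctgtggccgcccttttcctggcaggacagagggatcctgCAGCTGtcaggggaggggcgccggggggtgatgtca
Lmod1, chr1:135324563-135324806: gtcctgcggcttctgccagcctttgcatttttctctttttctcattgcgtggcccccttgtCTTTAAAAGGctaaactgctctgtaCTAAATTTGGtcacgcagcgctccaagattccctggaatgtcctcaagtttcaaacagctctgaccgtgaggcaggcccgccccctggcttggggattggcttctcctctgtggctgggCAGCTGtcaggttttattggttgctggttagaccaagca

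The full CArG box was searched first, on both strands of the 250 bases before and 50 bases after each start, and was in 0 of the 6 members and in 1.63% of 32851 promoters. After that result was seen, CArG-like sequences that differ from the box at 1 of 10 bases and the E-box were searched as well. A CArG box or CArG-like sequence was in 2 of the 6 members (Acta2 and Lmod1) and in 21.1% of all promoters. The E-box was in 3 of the 6 (Acta2, Des and Lmod1) and in 16.3% of all promoters. These are matches of letters in a short window and were not tested as binding sites.

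The actins form the thin filaments. Acta2, smooth muscle alpha actin (chr19:34241090-34255590, minus strand, GRCm38), stood at 131 and 222 CPM in the TPM libraries, 194 and 57.0 CPM in TPMCa, 10.6 and 379 CPM in TPMR1 and 152 and 56.5 CPM in TPK. The lowest and the highest of the 8 libraries were thus both TPMR1 libraries, and the ranges of all 4 models overlapped. Actg2, the gamma actin of visceral smooth muscle, stood at 11.5 and 63.7 CPM in TPM, 15.8 and 1.78 CPM in TPMCa, 0.733 and 11.6 CPM in TPMR1 and 21.1 and 2.31 CPM in TPK. Replicate 2 of TPM was the highest library, and each of the other models had a library below 3 CPM. Reads of actins can be shared with their close relatives Acta1 and Actc1, so these levels are uncertain by such reads. How the counting treated shared reads is not given in the sources used here.

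Myh11, the myosin heavy chain of smooth muscle, stood at 7.58 and 76.1 CPM in TPM, 8.61 and 8.17 CPM in TPMCa, 2.28 and 36.1 CPM in TPMR1 and 17.1 and 2.96 CPM in TPK. The TPMCa libraries agreed closely, whereas those of TPM lay 10.04-fold apart. Cnn1, calponin, an actin-binding protein of mature smooth muscle, stood at 6.56 and 53.4 CPM in TPM, 11.6 and 1.33 CPM in TPMCa, 1.31 and 10.3 CPM in TPMR1 and 19.0 and 1.71 CPM in TPK. Tagln, transgelin, which binds and bundles actin, stood at 79.0 and 216 CPM in TPM, 125 and 27.6 CPM in TPMCa, 13.4 and 173 CPM in TPMR1 and 173 and 53.6 CPM in TPK. For both genes every model overlapped every other. Tagln shares exon bases with Pcsk7 on the opposite strand, which stood at 25.8 to 94.1 CPM, and whether the kit marks strand is not given in the sources used here.

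Lmod1, leiomodin, which starts actin filaments in smooth muscle, stood at 2.59 and 8.46 CPM in TPM, 1.39 and 3.50 CPM in TPMCa, 0.694 and 5.61 CPM in TPMR1 and 2.51 and 0.198 CPM in TPK. The lowest value, in replicate 2 of TPK, rests on 3 counts and is at the floor of that library. Smtn, smoothelin, an actin-associated protein that other cell types also make, stood at 143 and 149.7 CPM in TPM, 91.0 and 82.8 CPM in TPMCa, 48.0 and 134 CPM in TPMR1 and 84.4 and 88.4 CPM in TPK. Both TPM libraries lay above all 6 other libraries for Smtn, a pattern held by 5.23% of all genes tested. Myocd, myocardin, the coactivator of serum response factor, had between 0 and 8 counts per library, with 0 counts in both TPK libraries. These values are at or near the floor and allow no comparison.

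Des and Synpo2 did not follow the other members in every library. Des, desmin, the intermediate filament of all muscle types, stood at 16.8 and 223 CPM in TPM, 45.9 and 12.9 CPM in TPMCa, 6.83 and 73.3 CPM in TPMR1 and 29.4 and 229.7 CPM in TPK. Synpo2, myopodin, an actin-bundling protein of smooth and striated muscle, stood at 3.25 and 7.94 CPM in TPM, 3.04 and 3.67 CPM in TPMCa, 7.87 and 19.7 CPM in TPMR1 and 1.89 and 8.04 CPM in TPK. Replicate 2 of TPK was the highest library for Des, whereas it was among the lower 4 of the 8 for the other 7 tested members. For Synpo2 it was the next to highest, but only just above replicate 2 of TPM (7.94 CPM) and replicate 1 of TPMR1 (7.87 CPM). An antisense gene that overlaps Des was at most at 0.198 CPM.

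**Figure D1:**
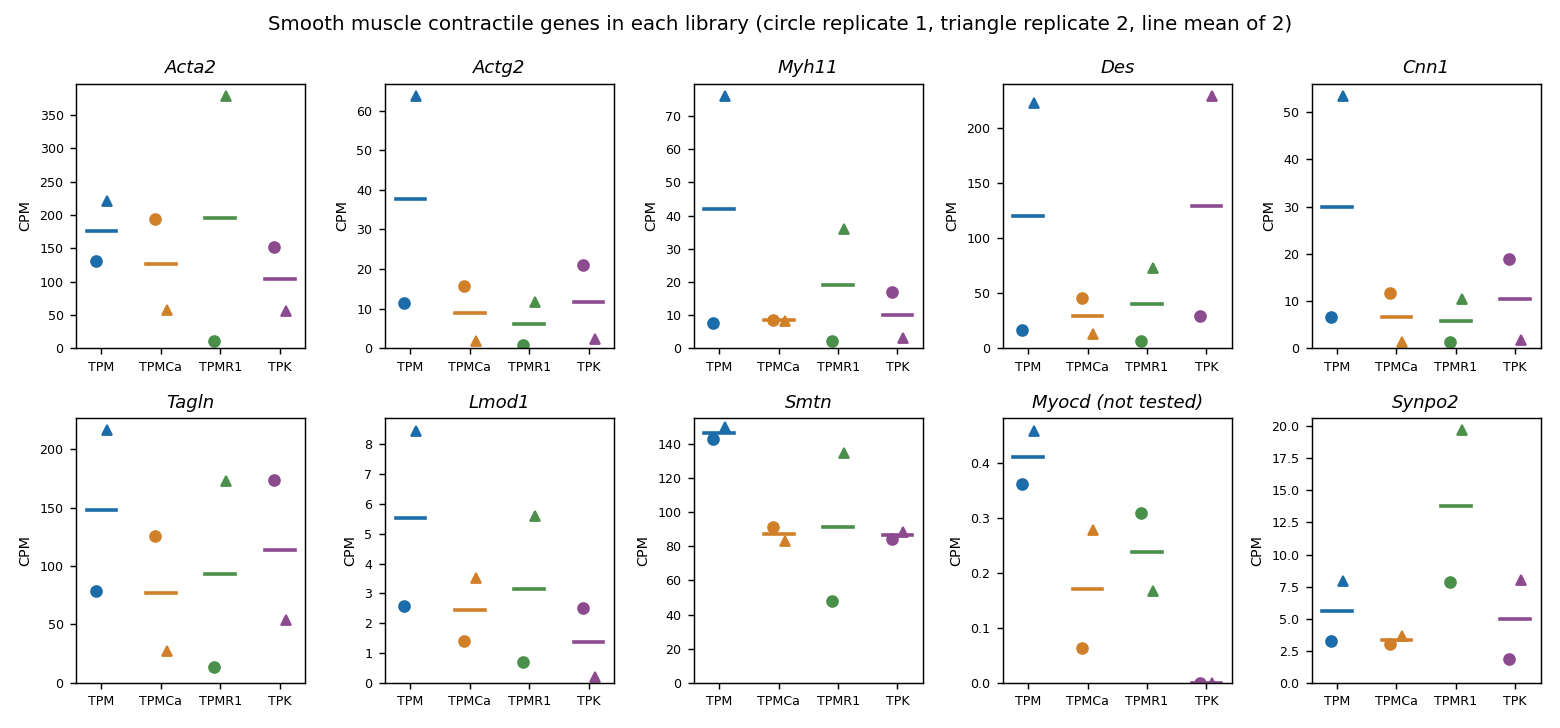
Level of each smooth muscle contractile gene (CPM, linear axis from 0, 1 panel per gene) in the 4 models, with a circle for replicate 1, a triangle for replicate 2 and a line for the mean of the 2. For Actg2, Myh11 and Cnn1 the triangle of TPM stands above every other library, and for Smtn both TPM points stand above all others.

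Per length of exon, the order of the mean levels over the 8 libraries ran from Acta2, at 68.4 CPM per kilobase, through Tagln (54.1), Smtn (23.4), Des (21.2), Actg2 (10.3), Cnn1 (4.81), Myh11 (2.61), Lmod1 (0.790) and Synpo2 (0.529) to Myocd (0.0318), all in CPM per kilobase. The ranges of Acta2 and Tagln overlapped, from 4.83 to 172 and from 6.75 to 109 CPM per kilobase, and neither was the higher in every library. Those of Smtn and Des overlapped too, from 10.95 to 34.2 and from 1.82 to 61.2 CPM per kilobase. Des was above Smtn in replicate 2 of TPM (59.4 against 34.2) and replicate 2 of TPK (61.2 against 20.2), and below it in the other libraries. In replicate 2 of TPM the actin Actg2 stood at 0.288 times the CPM of Acta2, against 0.0307 times in replicate 2 of TPMR1, so libraries high in Acta2 were not alike in Actg2.

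The 2 libraries of a model often lay far apart in these genes. This comparison was made after the values had been seen. The replicates lay over 4-fold apart for 4 of 9 tested members in TPM (4.72% of all genes tested), 3 of 9 in TPMCa (8.15%), 7 of 9 in TPMR1 (17% of all) and 6 of 9 in TPK (6.12%). The median fold between replicates was 3.27 in TPM, 3.41 in TPMCa, 10.7 in TPMR1 and 5.76 in TPK. The widest gap was that of Acta2 in TPMR1, at 35.7-fold, followed by Actg2 and Myh11 in TPMR1, both at 15.8-fold, whereas Smtn stayed within 1.10-fold in the other 3 models and differed 2.80-fold in TPMR1.

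The gap had 1 direction in part of the models. Replicate 2 was higher for 9 of 9 tested members in TPM and for 9 of 9 in TPMR1, and replicate 1 for 7 of 9 in TPMCa and 6 of 9 in TPK. Des and Synpo2 went the other way in TPK, with Des 7.82-fold and Synpo2 4.26-fold higher in replicate 2, and Smtn differed 1.05-fold. In TPMCa the exceptions were Lmod1, 2.52-fold higher in replicate 2, and Synpo2, 1.21-fold higher. Across the 8 libraries, replicate 2 of TPM was the highest for 6 of 9 tested members, and replicate 1 of TPMR1 the lowest for 7 of 9. The shares of all genes with these directions were not counted. The low in replicate 1 of TPMR1 was not particular to the members. Its sums were also the lowest for 30 other contraction genes (1685 CPM), 12 fibroblast genes (1114 CPM) and 5 macrophage genes (249 CPM). The endothelial sum was lowest in replicate 2 of TPK instead, at 60.0 CPM. That of the gonad genes was highest in replicate 1 of TPMR1, at 5057 CPM.

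**Figure D2:**
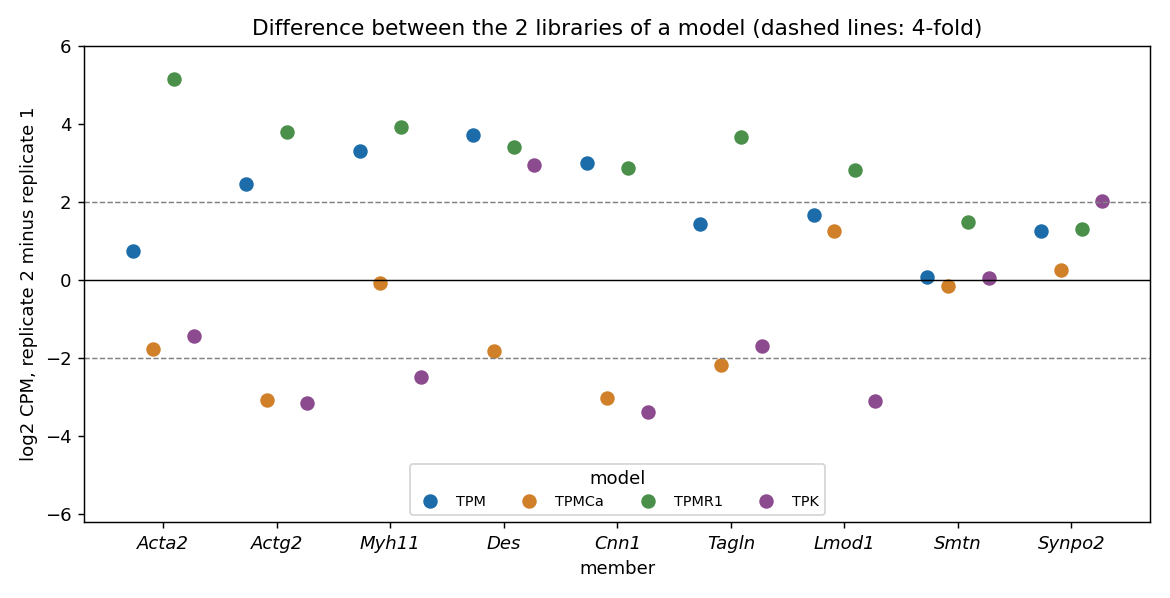
Difference between the 2 libraries of each model (log2 CPM of replicate 2 minus replicate 1) for the 9 tested genes, colored by model, with dashed lines at 4-fold. All TPM and TPMR1 points lie above 0, and the points of Acta2, Actg2, Cnn1 and Tagln in TPMCa and TPK lie below it.

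The standard deviation within models exceeded that of the model means for 9 of 9 tested members, on the log2 CPM scale, against 42.9% of all genes tested. The median within-model standard deviation was 2.01 for the members and 0.497 for all genes. Actg2 had the widest, at 2.23, the 98.3th percentile of all genes, followed by Cnn1 at 2.18 and Des at 2.17. Smtn (0.528) and Synpo2 (0.969) had the smallest among the tested members.

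The 4 models were compared in 1 edgeR quasi-likelihood fit of all 8 libraries, with Benjamini-Hochberg adjustment over all genes tested. None of the 9 tested members differed among the 4 models at an adjusted p under 0.05, while 7.32% of all genes did. The lowest adjusted p was 0.342, for Synpo2, followed by 0.471 for Smtn. At an unadjusted p under 0.05 the count was 0 of 9 by edgeR and 0 of 9 by the likelihood ratio test of DESeq2, against 27.9% of all genes by edgeR.

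TPMCa and TPMR1 were each set against TPM, which asks what the change in the PI3K pathway adds to TPM. In TPMCa all 9 fold changes were below 0, with a median log2 fold change of -1.17 against -0.01 for all genes, and 0 of 9 passed the test (3.48% of all genes did). At an unadjusted p under 0.05 the count was 0 of 9 too, against 22.1% of all genes. The log2 fold changes were -2.32 ± 1.52 (edgeR standard error) for Myh11, -2.21 ± 1.68 for Cnn1, -2.10 ± 1.69 for Actg2, -2.03 ± 1.60 for Des and -1.17 ± 1.38 for Lmod1, with adjusted p-values over all 9 members between 0.363 and 0.860. Without replicate 2 of TPM, the log2 fold change was 0.14 for Myh11, 0.80 for Des, -0.02 for Cnn1, -0.39 for Actg2 and -0.08 for Lmod1.

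In TPMR1 against TPM, 7 of 9 members were lower and 0 of 9 passed the test (5.58% of all genes did), nor did any at an unadjusted p under 0.05 (23.1% of all). The log2 fold changes were -2.61 ± 1.72 for Actg2, -2.37 ± 1.69 for Cnn1, -1.58 ± 1.58 for Des and -1.13 ± 1.47 for Myh11, whereas that of Synpo2 was 1.30 ± 0.86. Without replicate 2 of TPM they were -0.90 for Actg2, -0.17 for Cnn1, 1.25 for Des and 1.34 for Myh11, and without replicate 2 of TPMR1 that of Synpo2 was 0.50. The median over the members was -0.81 against 0.03 for all genes. Smtn had an adjusted p of 0.0184 in edgeR and a log2 fold change of -1.60 ± 0.28 once replicate 2 of TPMR1 was left out, which left 1 TPMR1 library assumed to vary like the other groups. That remaining library held 5057 CPM of the steroid-producing gonad genes, against 446 CPM in replicate 2 of TPMR1. The part of these genes in the result was not tested.

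TPM was also set against the mean of TPMCa and TPMR1, which the study pooled. Here 8 of 9 members were higher in TPM, with a median log2 fold change of 0.99 against -0.02 for all genes, and 0 of 9 passed the test (8.89% of all genes did), nor did any at an unadjusted p under 0.05 (24.9% of all). The log2 fold changes were 2.35 ± 1.35 for Actg2, 2.29 ± 1.34 for Cnn1, 1.81 ± 1.29 for Des and 1.72 ± 1.21 for Myh11. Without replicate 2 of TPM they were 0.64 for Actg2, 0.10 for Cnn1, -1.03 for Des and -0.74 for Myh11. Smtn had an adjusted p of 0.0143 in edgeR and a log2 fold change of 1.18 ± 0.19 without replicate 2 of TPMR1. These comparisons share the TPM libraries, so their values are set side by side and are not independent.

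TPMR1 against TPMCa asks whether both ways of altering the pathway differ. The members had a median log2 fold change of 0.36 against 0.01 for all genes, 0 of 9 were called, as were 0% of all genes, and 0 of 9 had an unadjusted p under 0.05 in edgeR (11.8% of all). Synpo2 came nearest, at 2.04 ± 0.88 on the log2 scale, with an unadjusted p of 0.0561 and an adjusted p of 0.438 in edgeR. Without replicate 2 of TPMR1 it was 1.23. DESeq2 gave it an unadjusted p of 0.0233 and an adjusted p of 0.200. Both TPMR1 libraries lay above both TPMCa libraries for Synpo2, which held for 18.7% of all genes. Myh11 had a log2 fold change of 1.19 ± 1.48, and it was -1.87 without replicate 2 of TPMR1.

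TPK was set against TPM and against the mean of TPMCa and TPMR1. Against TPM, 8 of 9 members were lower, with a median log2 fold change of -0.76 against 0.01 for all genes, and 0 of 9 passed the test, as did 0% of all genes, and 0 of 9 had an unadjusted p under 0.05 (7.17% of all). The log2 fold changes were -2.06 ± 1.51 for Myh11, -2.01 ± 1.42 for Lmod1, -1.68 ± 1.67 for Actg2 and -1.54 ± 1.64 for Cnn1. Without replicate 2 of TPM, that of Myh11 was 0.40, that of Cnn1 0.66, that of Actg2 0.03 and that of Lmod1 -0.92. Lmod1 and Smtn were lower in both TPK libraries than in both TPM libraries, a pattern that 23.5% of all genes held in this direction.

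Against the mean of TPMCa and TPMR1, the median log2 fold change of the members was -0.04 against -0.002 for all genes, and 0 of 9 passed the test (14.4% of all genes did) or had an unadjusted p under 0.05 (32% of all). Des had a log2 fold change of 1.92 ± 1.29 and Lmod1 of -1.02 ± 1.25. Without replicate 2 of TPK, that of Des was -0.22, and without replicate 2 of TPMR1, that of Lmod1 was 0.06.

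**Figure D3:**
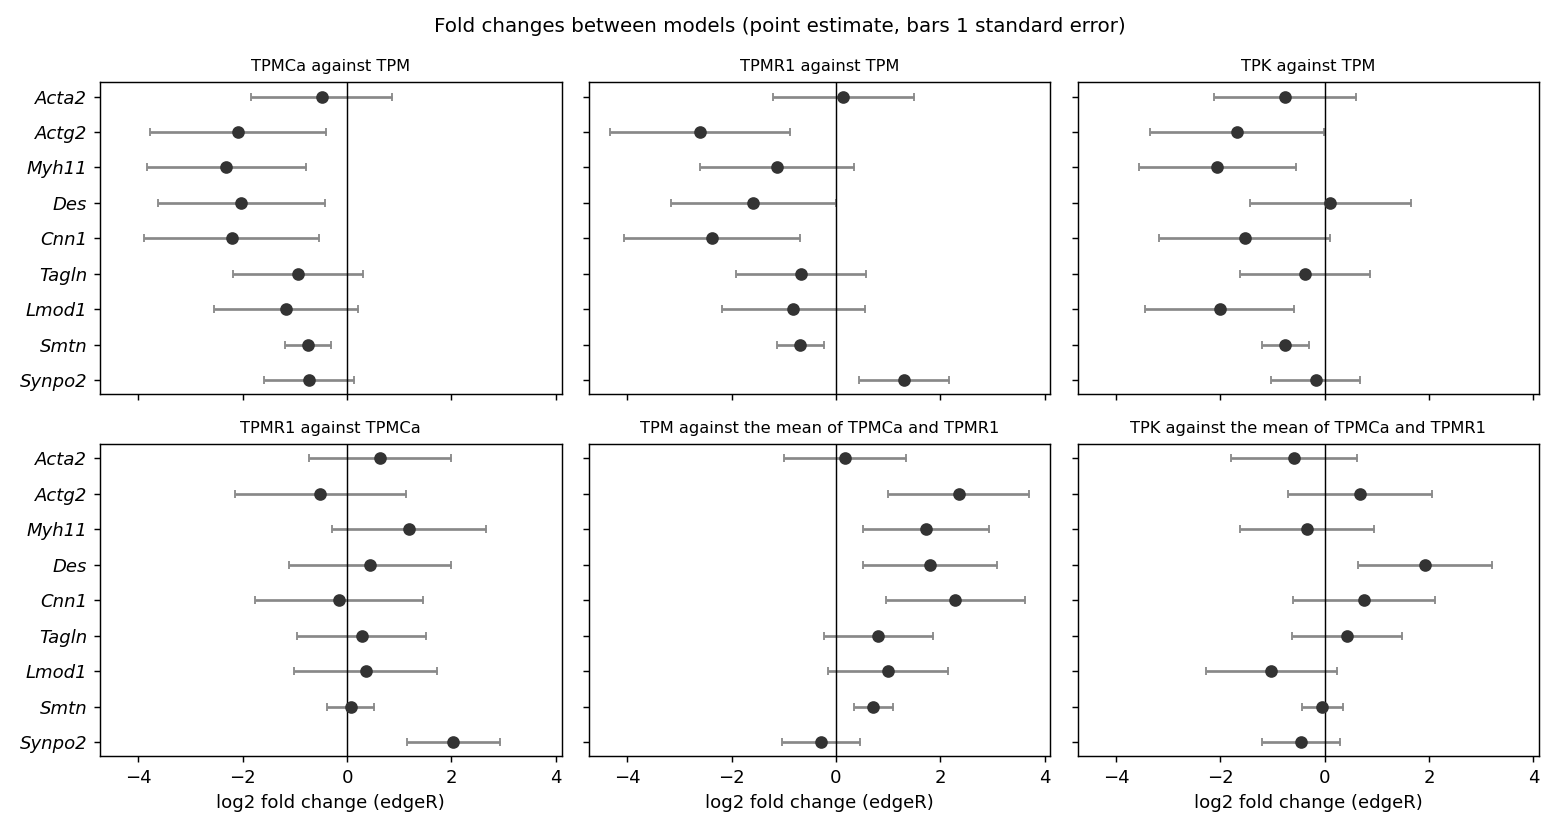
Log2 fold changes of the 9 tested genes in the 6 comparisons (edgeR, point estimates with bars of 1 standard error). No gene passed an adjusted p of 0.05, and the bars of Smtn are the shortest in each panel.

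Between the TPK libraries, the skeletal muscle genes were higher in replicate 2, as were Des and Synpo2. In replicate 2 of TPK, the skeletal actin Acta1 stood at 563 CPM, the fast myosin heavy chain Myh1 at 252 CPM and the giant sarcomere protein Ttn at 222 CPM, and in replicate 1 of TPK at 0.228, 0.0571 and 0.685 CPM. In the other 6 libraries Acta1 was at most 21.5 CPM and Myh1 at most 12.03 CPM. In replicate 2 of TPK, 13 of the 16 skeletal muscle genes had their highest level. The ratio of Des to Acta2 in CPM was 4.07 there, against 0.193 in replicate 1 of TPK and at most 1.007 in the other 6 libraries. In replicate 2 of TPM, where Des stood at 223 CPM, the skeletal list summed to 15.3 CPM, the lowest of all libraries. Synpo2 was highest in replicate 2 of TPMR1, at 19.7 CPM, where the skeletal list summed to 74.5 CPM. The part of skeletal muscle RNA in the level of Des and Synpo2 in TPK was not tested.

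**Figure D4:**
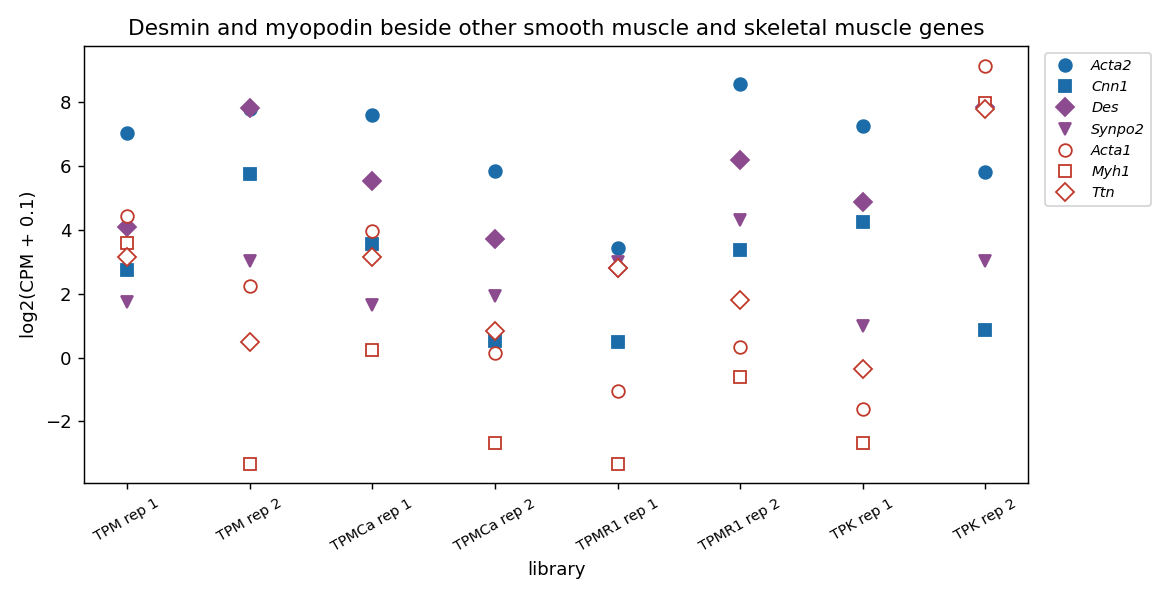
Des and Synpo2 (purple), Acta2 and Cnn1 (blue) and the skeletal muscle genes Acta1, Myh1 and Ttn (red, open) in each library, as log2 of CPM plus 0.1. In replicate 2 of TPK the skeletal genes and Des stand together at the top, while in replicate 2 of TPM Des stands high and the skeletal genes low.

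Other genes of the contractile apparatus and its control were taken from lists. Of 30 further contraction genes, 0 differed among the 4 models, while 7.32% of all genes did. In TPK against the mean of TPMCa and TPMR1, 3 of the 30 were lower and 0 higher, while 14.4% of all genes were called. They were Cacna1c, the pore of the calcium channel that starts contraction, at a log2 fold change of -3.57 ± 0.81 (adjusted p = 0.0330 in edgeR), Ppp1r12a, the targeting subunit of myosin phosphatase, at -0.84 ± 0.22 (adjusted p = 0.0478), and Ppp1r14a, an inhibitor of that phosphatase, at -4.51 ± 1.06 (adjusted p = 0.0361). Cacna1c stood at 3.43 and 1.91 CPM in TPK and at 27.4, 32.6, 9.52 and 58.2 CPM in the TPMCa and TPMR1 libraries. Each of these calls was lost when 1 library was left out, in 6 of 8 such fits for Cacna1c and Ppp1r14a (either library of TPM, TPMCa or TPK) and 7 of 8 for Ppp1r12a (the same and replicate 2 of TPMR1).

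Of the other contraction genes, Flna, which crosslinks actin in most cell types, had the highest mean CPM, not divided by length, with a range of 218 to 1134 CPM. Myl9, the regulatory light chain of smooth muscle myosin, stood at 40.3 and 68.3 CPM in TPM, 42.6 and 32.9 CPM in TPMCa, 4.20 and 148 CPM in TPMR1 and 35.0 and 10.6 CPM in TPK. As for Acta2, its lowest and highest values were those of the TPMR1 libraries.

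Of 12 genes for serum response factor and its partners, 1 differed among the 4 models, while 7.32% of all genes did. This was Mef2c (adjusted p = 0.0233 in edgeR). Mef2c, a transcription factor of muscle, endothelial and other lineages, stood at 53.5, 118, 133 and 120 CPM in the TPMCa and TPMR1 libraries. In TPM and TPK it stood at 12.2 to 21.0 CPM. Its log2 fold change from TPM was 2.44 ± 0.46 to TPMCa (adjusted p = 0.0427 in edgeR) and 3.001 ± 0.47 to TPMR1 (adjusted p = 0.0218). The call among the models and that for TPMR1 were lost in 4 of 8 fits that left out a library, those without a TPM or TPK library, and the call for TPMCa in these and in those without a TPMCa library. Srf itself stood between 82.0 and 211 CPM and was not called. In TPK against the mean of TPMCa and TPMR1, where 14.4% of all genes were called, 2 of the 12 were lower and 0 higher. They were Mef2c, at a log2 fold change of -2.53 ± 0.43 (adjusted p = 0.0135 in edgeR, lost without either TPK library), and its relative Mef2d, at -1.29 ± 0.29 (adjusted p = 0.0319, lost without either library of TPM or TPK or replicate 1 of TPMCa).

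Of 10 myometrial receptors and gap junction genes, 1 differed among the models, while 7.32% of all genes did. This was Oxtr, the oxytocin receptor of the myometrium (adjusted p = 0.0249 in edgeR). It stood at 261 and 140.4 CPM in TPMR1 and at most at 8.06 CPM in the other 6 libraries. Against TPM its log2 fold change in TPMR1 was 5.38 ± 1.20, with an adjusted p of 0.0538 in edgeR, and without either TPMCa library or replicate 2 of TPMR1 it passed the threshold. The call among the models was lost without either TPK library or without replicate 1 of TPM. The library with the highest Oxtr, replicate 1 of TPMR1, is also the one with 5057 CPM of steroid-producing gonad genes. It also had the lowest levels of 7 of the 9 tested members. Replicate 2 of TPMR1, with Oxtr at 140.4 CPM, held 446 CPM of the gonad genes, against at most 22.7 CPM in the other models. The part of the gonad genes in the result was not tested.

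Few markers of other mesenchymal, vascular and immune cells were called among the 4 models, where 7.32% of all genes were called. Of 11 pericyte genes, Abcc9, a channel subunit of mural cells, differed among the models (adjusted p = 0.0318 in edgeR, lost in 6 of 8 fits that left out a library, those without a TPM, TPMCa or TPK library). The list summed to 1008 CPM in replicate 2 of TPMR1, where Acta2 was at its highest, and to 210.2 CPM in replicate 1, where Acta2 was at its lowest. In TPM the sum went the other way from Acta2. It was 620 CPM in replicate 1 and 468 CPM in replicate 2, with Acta2 at 131 and 222 CPM. In TPMCa (606 and 557 CPM) and TPK (566 and 259 CPM) both the sum and Acta2 were higher in replicate 1. None of the 12 fibroblast, 7 endothelial, 5 macrophage or 4 tested adipocyte genes differed among the models, nor of the 15 tested skeletal muscle and 7 mesothelium and uterine stroma genes, while 1 of 5 tested cardiac muscle genes (Tnni3), 2 of 5 steroid-producing gonad genes and 6 of 7 basal epithelium genes did. The fibroblast list summed to 1114 CPM in replicate 1 of TPMR1, its lowest, and 20133 CPM in replicate 2 of TPMCa, its highest, where Acta2 was at 57.0 CPM. The part of these cells in the levels of the members was not tested.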

How the data were processed

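Bulk RNA libraries of 4 models were analyzed, with 2 libraries each, grouped by the sample labels. Columns headed TPMS were taken as TPM. The authors aligned reads to mm10 with STAR and deposited whole-number counts per gene symbol, which were used as deposited. A table the authors normalized with DESeq2 was not used. The counter and its annotation are not given in the sources used here. Fits used edgeR 4.0.16 in R 4.3.3 (TMM, filterByExpr, quasi-likelihood F tests, no replicate block), with DESeq2 1.42.0 as an alternative, and Benjamini-Hochberg adjustment over all 15875 genes tested. Log2 CPM used a prior count of 2. Standard errors were taken as the log2 fold change over the root of F. Exon lengths came from GENCODE on GRCm38. Fold changes are printed for members at a log2 size of 1 or more or an adjusted p under 0.05.

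The members, lists and comparisons were chosen with earlier results of these data known. The replicate folds, the comparison of standard deviations, the overlap counts, the actin and desmin ratios and the set of skeletal genes shown were chosen after the values were seen, and so were the alternatives for other named genes. Marker lists are given by counts only, with no test of a list. Replicate numbers did not pair libraries: the 6 correlations of replicate differences between models lay between -0.0688 and -0.0082. Fits were tested on simulated data. Results on some engineered genes are not reported here. No permutation test was run, since 2 libraries against 2 cannot give a p under 0.05.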

Additional observations from a re-analysis of the deposited data

How the results depend on the processing

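The count of members called was 0 of 9 in the test of 4 models and in each of 6 comparisons, and stayed 0 with the DESeq2 test, DESeq2 size factors, library size alone, no filter on low counts, a replicate block, only the models compared, and an unadjusted p under 0.05 (with a log2 fold change beyond 1 in the comparisons), except that leaving out a library gave 0 to 1 in the test of 4 models, in TPMR1 against TPM and in TPM against the pooled mean of TPMCa and TPMR1, each time Smtn without replicate 2 of TPMR1. The count at an unadjusted p was made in edgeR. In DESeq2, 1 member had an unadjusted p under 0.05, Synpo2 in TPMR1 against TPMCa. Of the 22 fold changes of members printed, all 132 values from alternatives other than leaving out a library kept their direction, as did 164 of 176 with a library left out. The 12 that reversed are given beside their results; they ranged, over the left-out libraries, from -3.17 to 0.14 for Myh11 and -3.18 to 0.80 for Des in TPMCa against TPM, from -4.19 to 1.34 for Myh11 and -4.13 to 1.25 for Des in TPMR1 against TPM, from -4.01 to 0.031 for Actg2, -3.80 to 0.40 for Myh11 and -4.11 to 0.66 for Cnn1 in TPK against TPM, from -1.87 to 2.10 for Myh11 in TPMR1 against TPMCa, from -0.74 to 3.25 for Myh11 and -1.03 to 3.08 for Des in TPM against the mean, and from -0.22 to 3.19 for Des and -3.78 to 0.063 for Lmod1 in TPK against the mean. Those that kept their direction ranged from -4.37 to -0.39 for Actg2, -4.45 to -0.02 for Cnn1 and -1.98 to -0.08 for Lmod1 in TPMCa against TPM, from -5.66 to -0.90 for Actg2, -4.50 to -0.17 for Cnn1 and 0.50 to 2.08 for Synpo2 in TPMR1 against TPM, from 0.64 to 3.88 for Actg2 and 0.10 to 3.41 for Cnn1 in TPM against the mean, from -4.75 to -0.92 for Lmod1 in TPK against TPM, and from 1.23 to 2.55 for Synpo2 in TPMR1 against TPMCa. The cause was not tested. The replicate block, run although the numbers did not pair libraries, gave 0 members called. The depth limits Myocd and, at 3 counts in replicate 2 of TPK, Lmod1. The lowest count of Actg2 was 19, in replicate 1 of TPMR1, which is above the floor. Of the other genes named, which were added after the data were seen, Cacna1c, Ppp1r12a and Mef2c in TPMCa lost their calls with the replicate block, Abcc9, Mef2c in TPMCa and in TPMR1 against TPM, and Cacna1c, Ppp1r12a, Ppp1r14a and Mef2d in TPK against the mean lost them in fits of only the models compared, while Mef2c in TPK against the mean kept its call there, and Ppp1r12a also with no filter on low counts, where Oxtr in TPMR1 against TPM gained its call, as it did with DESeq2. Their highest adjusted p-values in the comparisons lay between 0.102 and 0.260.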

Other observations

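The genes outside the list whose pattern over the 8 libraries was most like the mean of the tested members, by the root mean square difference of centered log2 CPM, were Lin28a (0.482), Vwa1 (0.511), Rab6b (0.537), Gm996 (0.550) and Cables1 (0.562). Lin28a stood between 0 and 2.29 CPM, near the floor. Vwa1, a matrix protein, was highest in replicate 2 of TPMR1, at 85.8 CPM, followed by replicate 2 of TPM, at 80.6 CPM, and lowest in replicate 1 of TPMR1, at 11.8 CPM. Of the members themselves, Tagln was nearest to the mean, at 0.450, and Synpo2 farthest, at 1.39. These values describe likeness over 8 libraries only and were not tested.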
